A study of Mus musculus with 12 samples.

Results

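The 44 genes described here are protein-coding genes of mouse chromosome 1 on the centromeric side of Sgpp2, the gene that was altered in the knockout animals. They come from a list of named genes within about 200 genes of Sgpp2. All 44 were found in the gene order of assembly GRCm38.p6, from Pax3, 2 genes away, to Hecw2, 177 genes away. They are 44 of the 15237 genes tested on the arrays. Among the 200 protein-coding genes nearest to Sgpp2 on that side, 176 were named by a probe set of their own and 152 were above the filter on dim signal, so that the list takes in 44 of 152 and leaves out 108. All 44 listed genes passed the filter. They were measured by 115 probe sets, of which 104 passed. Each gene was read by its brightest probe set over the 12 arrays, called its standing probe set below.

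Each of 12 samples was hybridised to 1 Affymetrix Mouse Genome 430 2.0 array, and the 4 groups held 3 arrays each: Sgpp2-/- (KO) and wild-type (WT) mice on a high-fat diet, and KO and WT mice on a normal diet. The strain was given as C57BL6 for all of them. The labels gave no tissue, age or sex, and the series title named pancreatic islets. The sources used here do not say how the Sgpp2 allele was made, on which strain, or whether each array stands for 1 animal. The p-values therefore speak of the spread among these samples only, and that spread may be technical. Values are log2 signals, and every difference below is KO minus WT on that scale. Of 6 listed beta cell markers, 4 were measured (Ins2, Iapp, Pdx1 and Slc2a2) and had high signals. Their mean lay between 13.72 and 13.86 in KO and between 13.83 and 13.84 in WT high-fat arrays, and between 13.81 and 13.85 in KO and between 13.87 and 13.93 in WT normal arrays. The alpha and delta cell lists overlapped between the genotypes on the high-fat diet. On the normal diet the alpha list had 12.67 to 12.77 in KO and 12.81 to 13.02 in WT arrays. Its markers were unlike: Irx2 had means of 9.22 in KO and 9.73 in WT normal arrays. Gcg had 14.355 and 14.44, and Ttr 14.555 and 14.54. The delta list had 11.78 to 11.93 in KO and 11.98 to 12.11 in WT normal arrays, and 0 markers of these lists were called. Directions on the normal diet moved with the scaling of the arrays. Of 4 beta markers 0 had higher means in KO there, but 4 did after centring each array on its median. For alpha markers 1 of 3 became 2, and for delta markers 0 of 2 became 1. After cyclic loess, another scaling, it was 0 in each of these lists.

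Sgpp2 encodes a phosphatase of the endoplasmic reticulum that acts on the lipid sphingosine-1-phosphate. Genes that lie close together on a chromosome are inherited together. When an allele is made in cells of one mouse strain and carried into another by crossing, the chromosome around it can keep the sequence of the first strain, and the length of that stretch depends on where recombination took place. Within such a stretch an array can read a genotype difference in 2 ways: a gene can be transcribed at another level, or a probe can bind its target better or worse because the target's sequence differs. The arrays hold no sequence of the mice, and these possibilities cannot be told apart here. Whether a stretch of another strain is present in these mice was not tested.

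The reference sequences at the start of 4 listed genes are shown, chosen by p of the standing probe set on average over diets. Whether these sequences have a part in the genotype differences was not tested. Mreg and Cyp20a1 had the smallest p among the genes that rose in KO, and Lancl1 and Marchf4 among those that fell, and all 4 calls held with any 1 array left out. Each sequence runs from 250 bases before to 50 bases after the start of the gene, 5′ to 3′ on the gene's own strand, as given by RefSeq for GRCm38.p6. Capitals mark matches, on either strand, to the GC box, spelled CCGCCC here, or to the TATA motif, spelled TATAAA. The letters of the CREB site, TGACGTCA, were searched too and did not occur in these 4 windows.
Mreg: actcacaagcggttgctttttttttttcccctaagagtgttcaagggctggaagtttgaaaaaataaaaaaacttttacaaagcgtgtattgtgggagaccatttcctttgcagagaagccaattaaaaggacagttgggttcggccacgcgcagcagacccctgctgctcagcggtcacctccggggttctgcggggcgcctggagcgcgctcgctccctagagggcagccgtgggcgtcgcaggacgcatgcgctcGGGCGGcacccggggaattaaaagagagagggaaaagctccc
Cyp20a1: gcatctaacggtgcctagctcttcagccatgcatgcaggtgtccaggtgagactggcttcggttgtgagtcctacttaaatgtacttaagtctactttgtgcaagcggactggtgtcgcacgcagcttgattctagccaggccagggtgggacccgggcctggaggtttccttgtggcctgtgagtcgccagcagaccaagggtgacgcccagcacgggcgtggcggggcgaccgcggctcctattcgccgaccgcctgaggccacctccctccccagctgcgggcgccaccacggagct
Lancl1: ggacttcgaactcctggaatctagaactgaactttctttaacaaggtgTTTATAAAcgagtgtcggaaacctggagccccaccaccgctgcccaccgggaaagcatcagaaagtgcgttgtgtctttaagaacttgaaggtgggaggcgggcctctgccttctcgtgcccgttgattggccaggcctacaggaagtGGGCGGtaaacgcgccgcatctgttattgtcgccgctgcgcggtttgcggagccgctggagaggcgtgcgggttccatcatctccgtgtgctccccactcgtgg
Marchf4: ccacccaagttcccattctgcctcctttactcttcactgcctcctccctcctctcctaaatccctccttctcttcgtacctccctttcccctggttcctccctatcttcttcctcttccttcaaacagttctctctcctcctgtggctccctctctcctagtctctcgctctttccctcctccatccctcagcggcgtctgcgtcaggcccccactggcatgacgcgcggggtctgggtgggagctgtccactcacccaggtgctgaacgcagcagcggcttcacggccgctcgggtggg
Mreg lies at chr1:72212265-72212564 (minus strand), Cyp20a1 at chr1:60343050-60343349 (plus strand), Lancl1 at chr1:67038785-67039084 (minus strand) and Marchf4 at chr1:72537110-72537409 (minus strand). The Mreg window held 1 GC box. In Lancl1, 1 GC box was found, and the TATA motif matched 2 times, once on each strand, in a single overlapping run of letters. Neither motif was found in the windows of Cyp20a1 and Marchf4. The windows held 20 (Mreg), 20 (Cyp20a1), 23 (Lancl1) and 13 (Marchf4) CG dinucleotides, against a median of 7 over 32851 promoters of the same length. Of the 44 listed genes, 41 had an entry; the GC box was in 31 of them, the TATA motif in 2 and the CREB site in 0. Over all promoters the shares were 35.7%, 13.6% and 1.79%. These sets are unlike: each listed gene gave 1 entry, the one nearest its start, and all listed genes passed the filter. The background took every entry of that length, so neither the shares nor the CG median is a like comparison. The risers and the fallers shown were not set apart by these motifs.

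The targeted gene was read first. Sgpp2 had 11.12, 11.11 and 11.02 in KO high-fat arrays, against 11.48, 11.46 and 11.57 in WT high-fat arrays, and 11.03, 11.17 and 10.99 in KO normal arrays, against 11.55, 11.51 and 11.63 in WT normal arrays. Every KO array was below every WT array (average difference −0.46, SE 0.05, limma adjusted p = 0.00327; exact two-sided permutation within diets p = 0.005, the smallest that 400 arrangements allow). The sources used here do not place the probe set relative to the altered stretch of the gene, and the signal that was left in KO arrays has no further reading.

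One array stood apart from its group. On component 1 of a principal component analysis (27.1% of the variance), which largely divided KO from WT, WT high-fat array 2 scored 6.51, within the KO range of 2.36 to 26.2 and apart from the other WT arrays at −21.1 to −7.55. Markers of some other cell types differed between the genotypes as well, and fewer cells of a type and less RNA per cell cannot be told apart in such samples. All 4 endothelial markers had lower means in KO on both diets, and Pecam1 and Kdr fell (−0.50 and −0.23 on average), of which 1 still passed after centring. Their mean level was 9.154 to 9.314 in KO and 9.415 to 9.59 in WT high-fat arrays, and 9.052 to 9.113 in KO and 9.221 to 9.468 in WT normal arrays. The 4 measured acinar markers had higher means in KO on both diets, with 0 called (after cyclic loess 1 of 4 was higher on the high-fat diet and 3 of 4 on the normal diet), at 13.97 to 14.06 in KO and 13.75 to 14.12 in WT high-fat arrays and 14.1 to 14.35 in KO and 13.93 to 14.12 in WT normal arrays. Of 5 measured markers of smooth muscle and pericytes, Pdgfrb rose by 0.34, and Acta2, Tagln, Myh11 and Rgs5 did not pass, at −0.10, −0.09, −0.17 and −0.018. The part of these shifts in the values of Epha4, Nrp2, Bmpr2 and the other listed genes was not tested.

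The differences of the 44 genes lay on both sides of 0. Averaged over both diets, 17 passed an adjusted p of 0.05 in limma's moderated test, which is 38.6% of the list beside 6.32% of all genes tested. Of these, 8 were higher and 9 lower in KO, beside 3.3% and 3.02% of all genes, and 25 of the 44 had an unadjusted p under 0.05, beside 28.6% of all genes. Deviations of KO arrays of the same number correlated across the diets (r = 0.138 to 0.383), a pairing that the labels do not explain. With these pairs as a random block 8 of the 17 passed, 5 higher and 3 lower, or 18.2% beside 2.31% of all genes. The median of the absolute difference was 0.231 for the listed genes and 0.125 for all genes, while the median of the signed difference was 0.01 for the list and −0.04 for all genes. The 8 that rose were Mreg, Cyp20a1, Bzw1, Kansl1l, Raph1, Hecw2, Dnpep and Pax3. Lancl1, Marchf4, Usp37, Pard3b, Vil1, Aox1, Fzd5, Stk16 and Casp8 fell. With the KO pairs as a block Mreg, Cyp20a1, Bzw1, Kansl1l, Raph1, Lancl1, Marchf4 and Pard3b passed, and Usp37, Vil1, Hecw2, Aox1, Fzd5, Stk16, Dnpep, Casp8 and Pax3 did not. The split moved with the scaling of the arrays. After cyclic loess it was 7 higher and 5 lower, and Dnpep, Aox1, Casp8, Fzd5 and Stk16 no longer passed. After centring each array on its median it was 10 and 5, with Creb1 and Nbeal1 added and Aox1, Casp8, Stk16 and Vil1 lost. Calls over all genes moved as well, from 503 higher and 460 lower to 616 and 230 after cyclic loess. They were 1070 and 174 after centring. On the high-fat diet 0 of 44 passed (0.0263% of all genes did), with 18 at an unadjusted p under 0.05, 8 higher and 10 lower, where 13.4% of all genes had one. On the normal diet Mreg rose and Lancl1 fell (1 of the 2, Mreg, with the KO pairs), 4.55% of the list beside 0.84% of all genes, and 19 listed genes had an unadjusted p under 0.05, beside 22.1% of all genes.

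The share of called genes in the list is tied to how the list was drawn up. Of the 152 centromeric genes tested within 200 genes, 20 passed on average, and 17 of these 20 are on the list. Among the 108 genes left out, 3 passed, or 2.78%, below the 6.32% of all genes: Speg, a muscle kinase, rose by 1.41, Acadl, an acyl-CoA dehydrogenase, fell by 0.74, and Cnppd1 fell by 0.24. The list's 38.6% therefore describes these 44 genes and not the chromosome around them. For the whole centromeric window the share was 13.2%, with 9 genes higher and 11 lower. On the telomeric side 21 of 127 genes within 200 passed, or 16.5%, and on the other chromosomes 873 of 14316, or 6.1%.

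**Figure D1:**
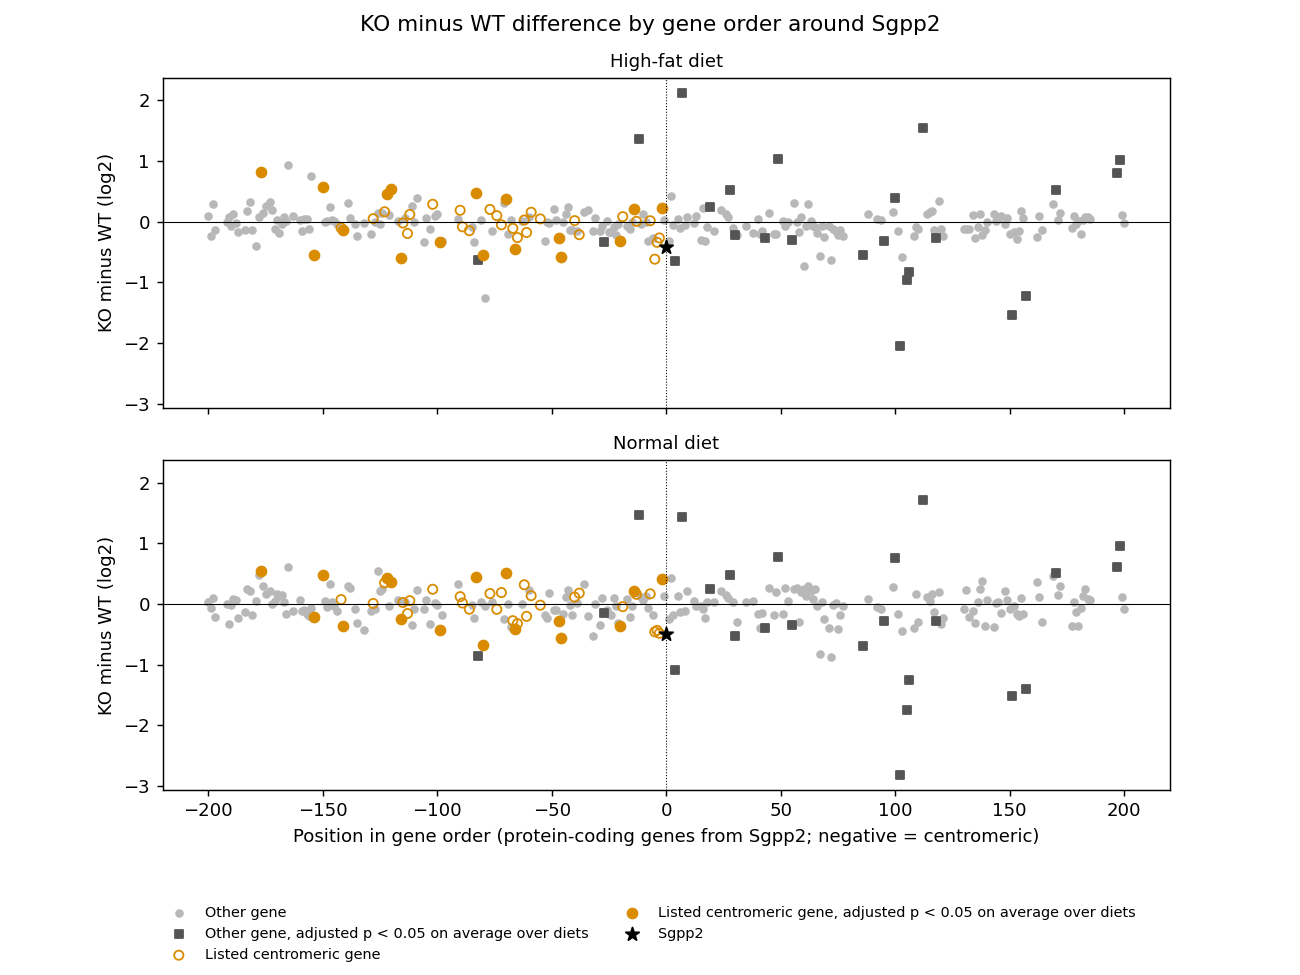
KO minus WT difference (log2, vertical axis) of each tested protein-coding gene against its position in gene order from Sgpp2 (horizontal axis, negative is centromeric), on the high-fat diet (upper panel) and the normal diet (lower panel). Orange marks the 44 listed genes, filled where the adjusted p on average over diets is under 0.05. The filled points lie between 2 and 177 genes from Sgpp2 and within 0.82 of 0, on both sides of it. Some other called genes, such as Speg at 12 genes, lie further from 0.

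Read by distance over all tested genes, listed or not, the share past the threshold was 15.9% (7 of 44 genes) at 1 to 50 genes from Sgpp2, 17.6% (6 of 34) at 51 to 100, 13.2% (5 of 38) in the third 50 genes and 5.56% (2 of 36) in the 50 beyond those. Beyond 200 genes towards the centromere it was 6.34% (9 of 142). The share was thus above the 6.1% of the other chromosomes in the 3 bins up to 150 genes and close to it further out. The 2 genes called past 150 were Aox1, 154 genes away, and Hecw2, 177 genes away, and both are on the list. The counts per bin are small, neighbouring genes are not independent, and no test was made of the step. With the same-numbered KO arrays as a random block, 10 of the 116 genes within 150 passed (8.62%), against 18 of 116 (15.5%) without the block, and all genes passed at 2.31%. With 1 array left out the fewest of these genes passed without KO normal array 3, 8 (6.9%, beside 1.71% of all genes). The most passed without WT high-fat array 2, 31 (26.7%, beside 16.4% of all genes). The fall of the share past 150 genes was not seen when every probe set was counted, not only the 1 that stands for its gene: the shares were 18.5%, 27.4%, 15.6% and 16.7% in the 4 bins, 11% beyond 200 genes and 9.8% on the other chromosomes.

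**Figure D2:**
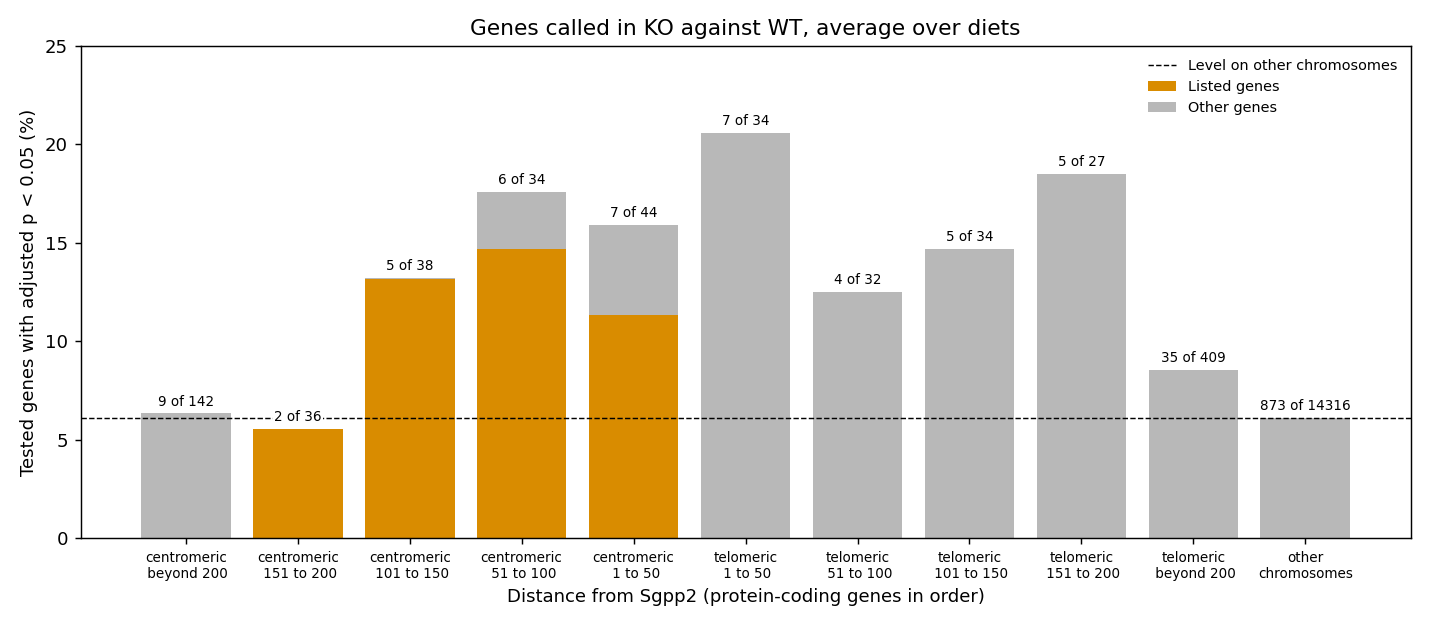
Share of tested genes with an adjusted p under 0.05 in KO against WT, average over diets (vertical axis, percent), by distance from Sgpp2 in genes (horizontal axis), with the number of called and tested genes above each bar and the level of the other chromosomes as a dashed line. Orange is the part of the share that comes from listed genes: the bars at 1 to 150 genes on the centromeric side stand at 13.2% to 17.6%, and the bar of the next 50 genes stands at 5.56%.

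Many of the listed genes separated the genotypes array by array. The 3 KO and 3 WT high-fat arrays did not overlap for 17 of the 44 genes (14.8% of all genes did so), and the 3 KO and 3 WT normal arrays did not overlap for 26 (34.3% of all genes). For 16 genes the groups were apart on both diets in the same direction, 9 higher and 7 lower in KO, beside 7.43% of all genes. Differences on both diets had the same sign in 36 of 44 genes, or 81.8%, beside 70.6% of all genes. The 17 called genes all kept their sign, but they were called on the average of these same differences, which favours that. As the list was chosen with earlier results known, the shares above and the correlation below describe these 44 genes only. Across the 44 genes the differences on the diets ran together (Pearson r = 0.883, Spearman rho = 0.881, a description across genes that share the same 12 arrays), and over all genes r was 0.467. The interaction of genotype and diet passed for 0 of 44 genes and for 0% of all genes, and 0 listed genes had an unadjusted p under 0.05 for it in limma, beside 4.97% of all genes; the smallest adjusted p was 0.982, for Pard3b.

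**Figure D3:**
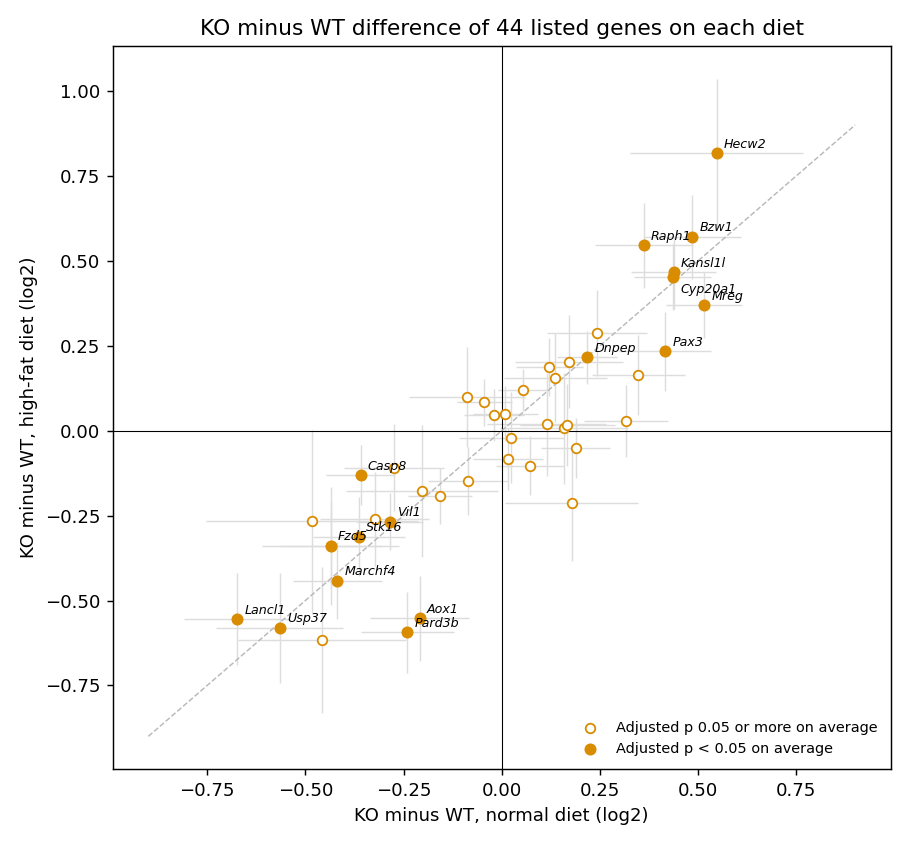
KO minus WT difference on the high-fat diet (vertical axis, log2) against that on the normal diet (horizontal axis, log2) for the 44 listed genes, with bars of 1 SE and a dashed line of equality. Filled points passed an adjusted p of 0.05 on average over diets; 36 of the 44 points lie at the lower left or upper right of the lines at 0, and Hecw2 has the largest difference on the high-fat diet, 0.82.

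Of 6 listed genes for metabolic and mitochondrial enzymes, 1 rose and 1 fell on average. Cyp20a1, an orphan member of the cytochrome P450 family 122 genes from Sgpp2, had 12.502, 12.49 and 12.68 in KO high-fat arrays, against 12.02, 12.31 and 11.98 in WT high-fat arrays. Its values were 12.57, 12.46 and 12.54 in KO normal arrays, against 12.01, 12.16 and 12.08 in WT normal arrays. All 6 KO arrays were above all 6 WT arrays, of which WT high-fat array 2 was the highest, and the average difference was 0.44 (SE 0.07, limma adjusted p = 0.00887). Aox1, an aldehyde oxidase 154 genes away, had 9.63, 9.70 and 9.55 in KO high-fat arrays, against 9.98, 10.04 and 10.52 in WT high-fat arrays. On the normal diet it had 10.18, 10.12 and 10.08 in KO arrays, against 10.44, 10.25 and 10.33 in WT arrays. The KO arrays were lower on each diet, most so on the high-fat diet, where the difference was −0.55 against −0.21 on the normal diet; the interaction did not pass, and the average was −0.38 (SE 0.09, adjusted p = 0.0324, or 0.0608 with the KO pairs as a block). The other 4 did not pass: Ndufs1, a subunit of respiratory complex I, differed by −0.18 (adjusted p = 0.0856), Idh1, the cytosolic isocitrate dehydrogenase, by 0.15, Atic, of purine synthesis, by 0.07, and Cyp27a1, a mitochondrial sterol hydroxylase, by −0.02.

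Of 2 genes for factors of protein synthesis, 1 rose. Bzw1, which regulates the choice of start codons in translation initiation and lies 150 genes from Sgpp2, had 10.91, 10.93 and 11.21 in KO high-fat arrays, against 10.31, 10.67 and 10.35 in WT high-fat arrays, and 10.94, 10.63 and 10.84 in KO normal arrays, against 10.23, 10.38 and 10.33 in WT normal arrays. Within each diet every KO array was above every WT array, WT high-fat array 2 being the nearest of the WT arrays, and Bzw1 rose by 0.53 on average (SE 0.09, adjusted p = 0.0104). This rise rests on the probe set that stands for the gene, and the others ran the other way, as given below. Eef1b2, a subunit of the elongation factor complex, differed by 0.09 (adjusted p = 0.217).

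**Figure D4:**
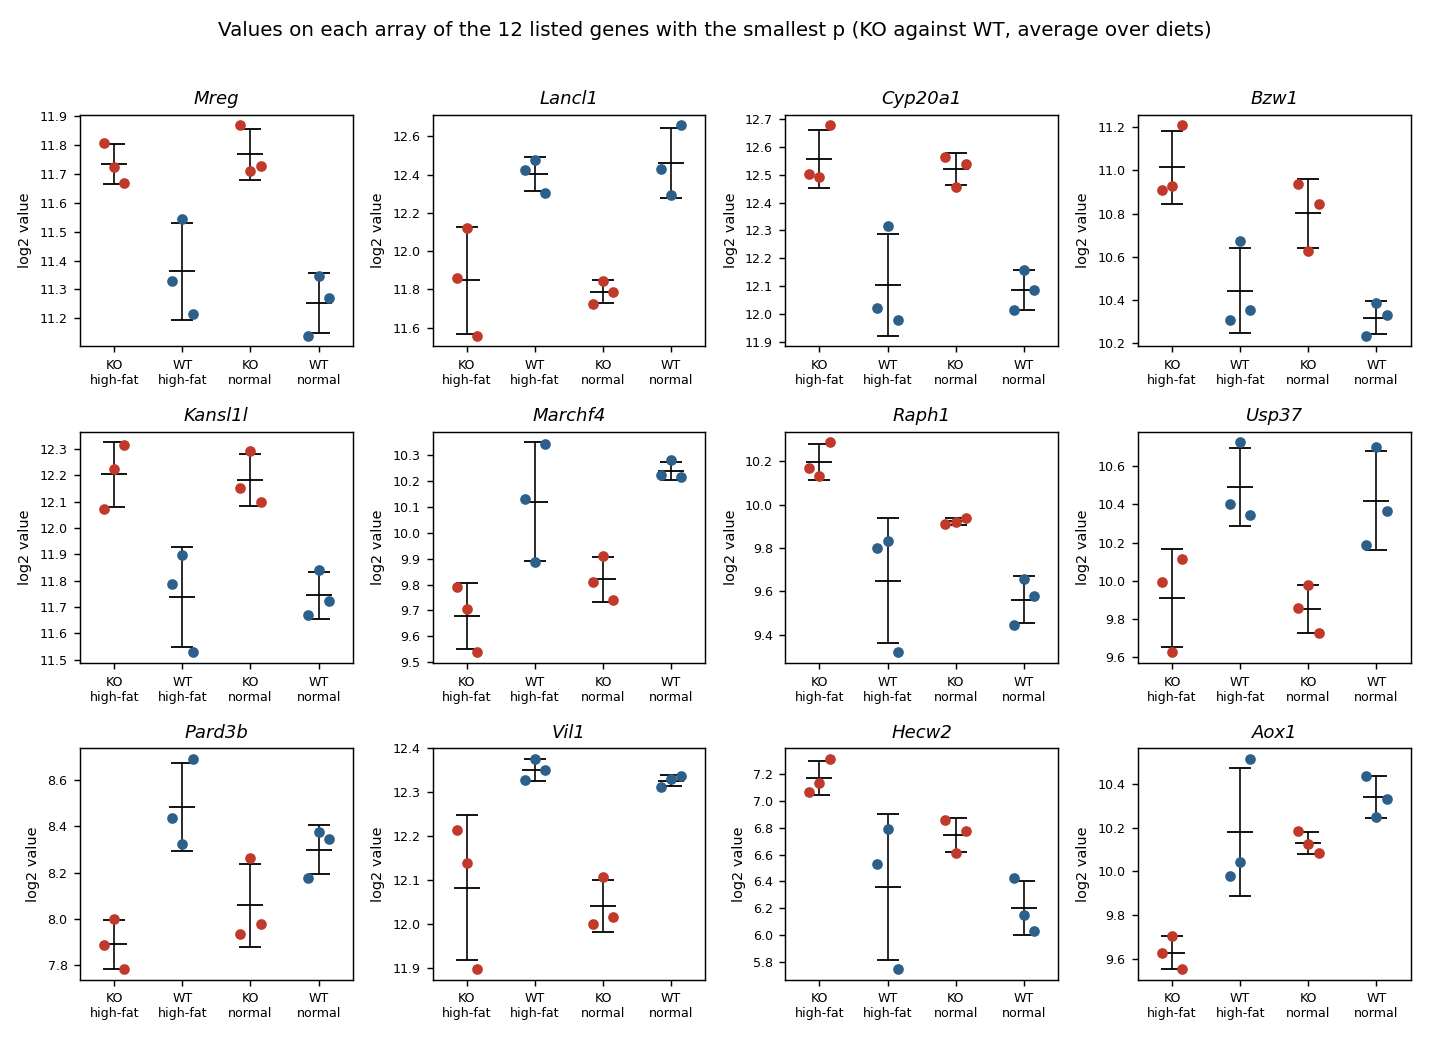
Log2 value on each array (points), with the group mean and 1 SD (bars, n = 3 arrays), for the 12 listed genes with the smallest p in KO against WT averaged over diets; KO is red and WT blue, high-fat left and normal right in each panel. In 11 of the 12 panels the KO points lie wholly above or wholly below the WT points of the same diet, and in the Pard3b panel they overlap on the normal diet.

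Among 3 genes of ubiquitin ligases and proteases, 1 rose and 2 fell. Marchf4, a membrane-bound ubiquitin ligase 66 genes away, had 9.79, 9.71 and 9.54 in KO high-fat arrays, against 10.13, 9.89 and 10.34 in WT high-fat arrays, and 9.81, 9.91 and 9.74 in KO normal arrays, against 10.22, 10.28 and 10.21 in WT normal arrays. KO arrays were lower within each diet, WT high-fat array 2 was the lowest of the WT arrays, and the average difference was −0.43 (SE 0.08, adjusted p = 0.0158). Usp37, a deubiquitinating enzyme that acts on cyclin A, was 46 genes away and had 9.99, 9.63 and 10.11 in KO high-fat arrays, against 10.40, 10.73 and 10.34 in WT high-fat arrays. In KO normal arrays it had 9.86, 9.98 and 9.73, against 10.19, 10.70 and 10.37 in WT normal arrays. All KO arrays lay below all WT arrays, and Usp37 fell to 67.2% of the WT level (difference −0.57, SE 0.11, adjusted p = 0.0215, or 0.0524 with the KO pairs as a block). Hecw2, a ubiquitin ligase of the HECT class and the farthest of the listed genes, had 7.07, 7.13 and 7.31 in KO high-fat arrays, against 6.53, 6.79 and 5.74 in WT high-fat arrays, and 6.86, 6.61 and 6.78 in KO normal arrays, against 6.43, 6.15 and 6.03 in WT normal arrays. The groups did not overlap within a diet, the WT high-fat arrays were spread over more than 1 log2 unit, and the average difference of 0.68 (SE 0.16, adjusted p = 0.0311, or 0.059 with the KO pairs as a block) was the largest on the list. The other probe set of Hecw2, 1458464_at, differed by only 0.10 on average and did not pass.

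All 4 genes of transcription and chromatin had higher means in KO on both diets, and 2 passed. Kansl1l, which resembles a subunit of a histone acetyltransferase complex and lies 83 genes away, had 12.07, 12.22 and 12.31 in KO high-fat arrays, against 11.79, 11.90 and 11.53 in WT high-fat arrays. Its normal-diet values were 12.15, 12.29 and 12.10 in KO arrays, against 11.67, 11.84 and 11.72 in WT arrays. All KO arrays were above all WT arrays, by 0.45 on average (SE 0.08, adjusted p = 0.011). Pax3, a transcription factor of neural crest and muscle precursors and the nearest listed gene, had 5.30, 5.42 and 5.37 in KO high-fat arrays, against 5.17, 5.20 and 5.02 in WT high-fat arrays, and 5.43, 5.81 and 5.95 in KO normal arrays, against 5.27, 5.31 and 5.36 in WT normal arrays. These values lie close to the filter at 5, where arrays understate differences; the groups were apart on each diet and the average difference was 0.33 (SE 0.08, adjusted p = 0.0424, or 0.0778 with the KO pairs as a block). Creb1, the transcription factor that answers to cyclic AMP, differed by 0.27 (adjusted p = 0.0891) and Ikzf2, a zinc finger factor known from T cells, by 0.19 (adjusted p = 0.226).

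In the group of vesicle traffic, transport and other functions, 2 of 5 genes rose and 1 fell. Mreg (melanoregulin), which takes part in the traffic of melanosomes and related organelles, lies 70 genes away and had 11.81, 11.72 and 11.67 in KO high-fat arrays, against 11.33, 11.55 and 11.21 in WT high-fat arrays. It had 11.87, 11.71 and 11.73 in KO normal arrays, against 11.14, 11.34 and 11.27 in WT normal arrays. All KO arrays exceeded all WT arrays, with means of 11.73 ± 0.07 in KO and 11.36 ± 0.17 in WT high-fat arrays, and of 11.77 ± 0.09 in KO and 11.25 ± 0.10 in WT normal arrays (SD, n = 3 each). The difference was 0.44 on average (SE 0.07, adjusted p = 0.00862), 0.37 on the high-fat diet (adjusted p = 0.166) and 0.52 on the normal diet (adjusted p = 0.0445). Lancl1, a glutathione-binding protein, 80 genes away, had 11.86, 12.12 and 11.56 in KO high-fat arrays, against 12.42, 12.48 and 12.31 in WT high-fat arrays, and 11.73, 11.85 and 11.79 in KO normal arrays, against 12.43, 12.29 and 12.66 in WT normal arrays. All KO arrays were below all WT arrays, and the level in KO was 65.3% of that in WT on average (difference −0.61, SE 0.10, adjusted p = 0.00862); on the high-fat diet it differed by −0.56 (adjusted p = 0.157) and on the normal diet by −0.67 (adjusted p = 0.0496). Both normal-diet calls lie just under the threshold. Mreg lost its call with any of 10 single arrays left out (adjusted p up to 0.185, without WT normal array 1), and Lancl1 with any of 9 (up to 0.185, likewise). Dnpep, an aspartyl aminopeptidase, had 12.37, 12.45 and 12.33 in KO high-fat arrays, against 12.11, 12.13 and 12.26 in WT high-fat arrays, and 12.36, 12.52 and 12.52 in KO normal arrays, against 12.22, 12.22 and 12.31 in WT normal arrays; it was higher on each diet without overlap, by 0.22 on average (SE 0.05, adjusted p = 0.0411, or 0.0775 with the KO pairs as a block). Of its other 4 probe sets, 1439452_x_at rose by 0.25, and 1460579_at and 1416127_a_at differed by −0.45 and −0.27 and did not pass (adjusted p = 0.0754 and 0.107 over probe sets). Slc4a3, an anion exchanger only 4 genes from Sgpp2, had 8.98, 8.93 and 8.37 in KO high-fat arrays, against 9.10, 8.81 and 9.38 in WT high-fat arrays, and 8.93, 8.98 and 8.77 in KO normal arrays, against 9.45, 9.18 and 9.36 in WT normal arrays. Its groups overlapped on the high-fat diet, where WT high-fat array 2 was lower than the KO arrays 1 and 2, and the average of −0.39 did not pass (adjusted p = 0.0783). On its other probe set, 1453687_at, Slc4a3 differed by −0.45 and passed over probe sets. Nbeal1, of the neurobeachin family, differed by 0.26 (adjusted p = 0.0825).

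The 9 genes of the cytoskeleton, adhesion and polarity held 1 riser and 2 fallers. Raph1 (lamellipodin), which recruits actin-elongating Ena/VASP proteins, had 10.17, 10.13 and 10.29 in KO high-fat arrays, against 9.80, 9.83 and 9.32 in WT high-fat arrays, and 9.91, 9.92 and 9.94 in KO normal arrays, against 9.44, 9.66 and 9.58 in WT normal arrays. KO arrays were the higher ones throughout, and the average difference was 0.45 (SE 0.09, adjusted p = 0.0197). Vil1 (villin), which bundles actin in microvilli, had 12.21, 12.14 and 11.90 in KO high-fat arrays, against 12.33, 12.38 and 12.35 in WT high-fat arrays. In KO normal arrays it had 11.999, 12.11 and 12.01, against 12.31, 12.33 and 12.34 in WT normal arrays. The 6 WT values lay close together and all KO values below them, with an average of −0.28 (SE 0.06, adjusted p = 0.0268, or 0.0546 with the KO pairs as a block). Pard3b, a relative of the polarity protein PAR3, had 7.89, 7.998 and 7.78 in KO high-fat arrays, against 8.44, 8.32 and 8.69 in WT high-fat arrays, and 7.93, 8.26 and 7.98 in KO normal arrays, against 8.18, 8.37 and 8.34 in WT normal arrays. Its groups were apart on the high-fat diet (−0.59) and overlapped on the normal diet (−0.24), with an average of −0.42 (SE 0.08, adjusted p = 0.0219). Obsl1, a cytoskeletal adaptor 7 genes from Sgpp2, had 8.61, 8.63 and 8.31 in KO high-fat arrays, against 8.60, 8.26 and 8.65 in WT high-fat arrays, and 8.499, 8.68 and 8.66 in KO normal arrays, against 8.54, 8.37 and 8.44 in WT normal arrays; the groups overlapped and the average was 0.09 (adjusted p = 0.498). The remaining 5, Des (desmin of muscle), Tuba4a (an alpha tubulin), Arpc2 (of the actin-branching Arp complex), Tns1 (tensin of focal adhesions) and Map2 (a microtubule protein of neurons), differed by 0.08, 0.02, 0.01, 0.15 and −0.12, and none passed.

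Of 6 genes for receptors and ligand-binding proteins, Fzd5 fell. This Wnt receptor had 7.92, 7.502 and 7.61 in KO high-fat arrays, against 7.96, 8.04 and 8.05 in WT high-fat arrays, and 7.73, 7.47 and 7.59 in KO normal arrays, against 8.08, 7.81 and 8.22 in WT normal arrays. KO arrays were lower without overlap on each diet, although KO high-fat array 1 came close to the lowest WT high-fat array, and the average was −0.39 (SE 0.09, adjusted p = 0.0328, or 0.0555 with the KO pairs as a block). Epha4, an ephrin receptor 3 genes from Sgpp2, had 7.43, 6.499 and 7.32 in KO high-fat arrays, against 6.82, 7.72 and 7.51 in WT high-fat arrays, and 7.59, 7.20 and 7.15 in KO normal arrays, against 7.58, 7.90 and 7.92 in WT normal arrays. Its groups overlapped on both diets and the average of −0.37 had an SE of 0.19 (adjusted p = 0.219). Igfbp2 and Igfbp5, which bind insulin-like growth factors, differed by 0.17 and −0.19, the neuropilin Nrp2 by 0.00 (SE 0.09) and the BMP receptor Bmpr2 by 0.03 (SE 0.06), and none of the 4 passed.

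Among the kinases and kinase partners 1 of 4 fell. Stk16, a lipid-anchored kinase of the Golgi 20 genes away, had 10.31, 10.496 and 10.22 in KO high-fat arrays, against 10.87, 10.42 and 10.68 in WT high-fat arrays, and 10.12, 10.28 and 10.13 in KO normal arrays, against 10.63, 10.47 and 10.51 in WT normal arrays. WT high-fat array 2 lay below KO high-fat array 2, the groups were apart on the normal diet, and the average was −0.34 (SE 0.08, adjusted p = 0.0373, or 0.0639 with the KO pairs as a block). Stk11ip, which binds the kinase LKB1 and lies 5 genes from Sgpp2, had 9.41, 9.18 and 8.73 in KO high-fat arrays, against 9.66, 9.32 and 10.19 in WT high-fat arrays, and 9.09, 9.19 and 8.93 in KO normal arrays, against 9.40, 9.49 and 9.69 in WT normal arrays. Its average of −0.54 (SE 0.15) was among the larger ones on the list and did not pass (limma adjusted p = 0.0575). Of 21 alternative fits 17 left Stk11ip uncalled, with adjusted p from 0.019 (without WT high-fat array 2) to 0.13. Pikfyve, a phosphoinositide kinase, differed by −0.03 and Stk36, a kinase of motile cilia, by 0.07, and neither passed.

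Casp8 and Cflar, an initiator caspase of death receptors and its inhibitor, are neighbours 141 and 142 genes from Sgpp2. Casp8 had 9.61, 9.71 and 9.75 in KO high-fat arrays, against 9.77, 9.78 and 9.91 in WT high-fat arrays, and 9.70, 9.48 and 9.58 in KO normal arrays, against 10.07, 9.84 and 9.92 in WT normal arrays. It fell by 0.24 (SE 0.06, adjusted p = 0.0412, or 0.0845 with the KO pairs as a block), with the larger gap on the normal diet (−0.36, against −0.13 on the high-fat diet). Cflar had 12.32, 12.20 and 12.38 in KO high-fat arrays, against 12.36, 12.36 and 12.49 in WT high-fat arrays, and 12.30, 12.17 and 12.10 in KO normal arrays, against 12.14, 12.004 and 12.21 in WT normal arrays. Its groups overlapped on both diets and the average was −0.02 (SE 0.06, adjusted p = 0.889). None of the 3 genes of DNA repair passed. Smarcal1, which remodels stalled replication forks, had 10.67, 10.72 and 10.44 in KO high-fat arrays, against 10.87, 10.58 and 11.16 in WT high-fat arrays, and 10.46, 10.65 and 10.65 in KO normal arrays, against 11.06, 10.85 and 10.83 in WT normal arrays. The groups were apart on the normal diet only, and the average was −0.29 (SE 0.10, adjusted p = 0.0878). Xrcc5, of the Ku complex that binds DNA ends, differed by −0.19 and Bard1, the partner of BRCA1, by 0.01.

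The 5 listed genes nearest to Sgpp2 and the 5 farthest from it were read in gene order. Of the 5 listed genes nearest to Sgpp2, Pax3 rose in the gene fit. Epha4, Slc4a3, Stk11ip and Obsl1 did not pass in that fit, with averages of −0.37, −0.39, −0.54 and 0.09. In the fit with 1 row per probe set, 1 probe set passed for each of Epha4, Slc4a3 and Stk11ip, lower in KO, and 0 for Obsl1. Epha4, Slc4a3 and Stk11ip, 3, 4 and 5 genes away, thus had lower means in KO. Of the 5 farthest, Hecw2 and Bzw1 rose, Aox1 and Casp8 fell and Cflar did not pass. Size did not follow distance in any plain order: the averages of the 17 called genes ran from 0.22 for Dnpep, 14 genes away, to 0.68 for Hecw2, 177 genes away, in absolute value.

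Probe sets of the same gene often ran in opposite directions. In a fit with 1 row per probe set, 36 of 104 probe sets of listed genes passed on average, 16 higher and 20 lower (34.6%, beside 10.1% of all 28689 probe sets); on the high-fat diet 0 passed (0.282% of all) and on the normal diet 8 (7.69%, beside 1.9%). Of the 60 probe sets that do not stand for their gene, 18 passed (30%), and of 201 probe sets of the centromeric genes left off the list, 22 passed (10.9%). At least 1 probe set passed for 27 of the 44 genes, 10 of which were not called in the gene fit. In 9 of these another probe set than the standing one passed, and for Stk11ip it was its only probe set (adjusted p = 0.0435 over probe sets). Among the 27 listed genes with more than 1 probe set, the average differences had 1 sign in 9 (33.3%, beside 43.6% of 7418 genes with more than 1). In 4 of the 27, Kansl1l, Bzw1, Cyp20a1 and Pard3b, probe sets passed in both directions (14.8%, beside 1.78% of the 7418 genes).

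Kansl1l had the widest spread, from −2.39 to 1.11 over 6 probe sets. Probe set 1440848_at had 5.20, 7.22 and 5.28 in KO high-fat arrays, against 8.26, 8.77 and 7.80 in WT high-fat arrays, and 5.46, 4.93 and 5.36 in KO normal arrays, against 7.51, 7.45 and 7.98 in WT normal arrays. Its difference of −2.39 (SE 0.32, adjusted p = 0.00256 over probe sets) was the largest of any probe set on the list; KO high-fat array 2, at 7.22, stood apart from the other 5 KO arrays and lay just under the lowest WT array. Probe set 1443584_at went the other way, with 7.86, 7.52 and 7.83 in KO high-fat arrays, against 6.29, 6.65 and 7.01 in WT high-fat arrays, and 7.996, 8.03 and 7.63 in KO normal arrays, against 6.77, 7.16 and 6.32 in WT normal arrays, a difference of 1.11 (SE 0.16, adjusted p = 0.00326). The other 4, among them the one that stands for the gene, were higher in KO by 0.18 to 0.66, and 3 of these 4 passed. For Bzw1 the standing probe set rose by 0.53 while 1450846_at fell by 0.42 (adjusted p = 0.019), and the other 3 differed by −0.06 to −0.22. For Cyp20a1 the standing probe set rose by 0.44, 1430452_at fell by 0.33 (adjusted p = 0.0141) and the last differed by 0.02. Pard3b fell by 0.42 on its standing probe set and rose by 0.31 on 1441254_at (adjusted p = 0.0322), and Lancl1 differed by 0.31 on its second probe set (adjusted p = 0.0808), against −0.61 on the first.

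Some genes that were not called by their standing probe set moved on another. Atic fell by 0.48 on 1452811_at (SE 0.07, adjusted p = 0.00388), with 8.32, 8.42 and 8.48 in KO high-fat arrays, against 9.04, 8.89 and 8.79 in WT high-fat arrays, and 8.19, 8.31 and 8.26 in KO normal arrays, against 8.79, 8.84 and 8.53 in WT normal arrays, 4 groups in which every KO array lay below every WT array. Map2 fell by 0.59 on 1421327_at (adjusted p = 0.00235) and by 0.37 on 1421328_at (adjusted p = 0.0252), Creb1 fell by 0.44 on 1421582_a_at (adjusted p = 0.00992), and Epha4 fell by 0.25 on 1439757_s_at (adjusted p = 0.0159). Rises were seen on 1449317_at of Cflar, by 0.37 (adjusted p = 0.00869), on 1419821_s_at of Idh1, by 0.44 (adjusted p = 0.0248), and on 1429505_at of Nbeal1, by 0.37 (adjusted p = 0.0103). What part of the transcript each probe set reads, and whether its target differs in sequence between the genotypes, was not tested. A direction given for a gene in this text is therefore the direction of its standing probe set.

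**Figure D5:**
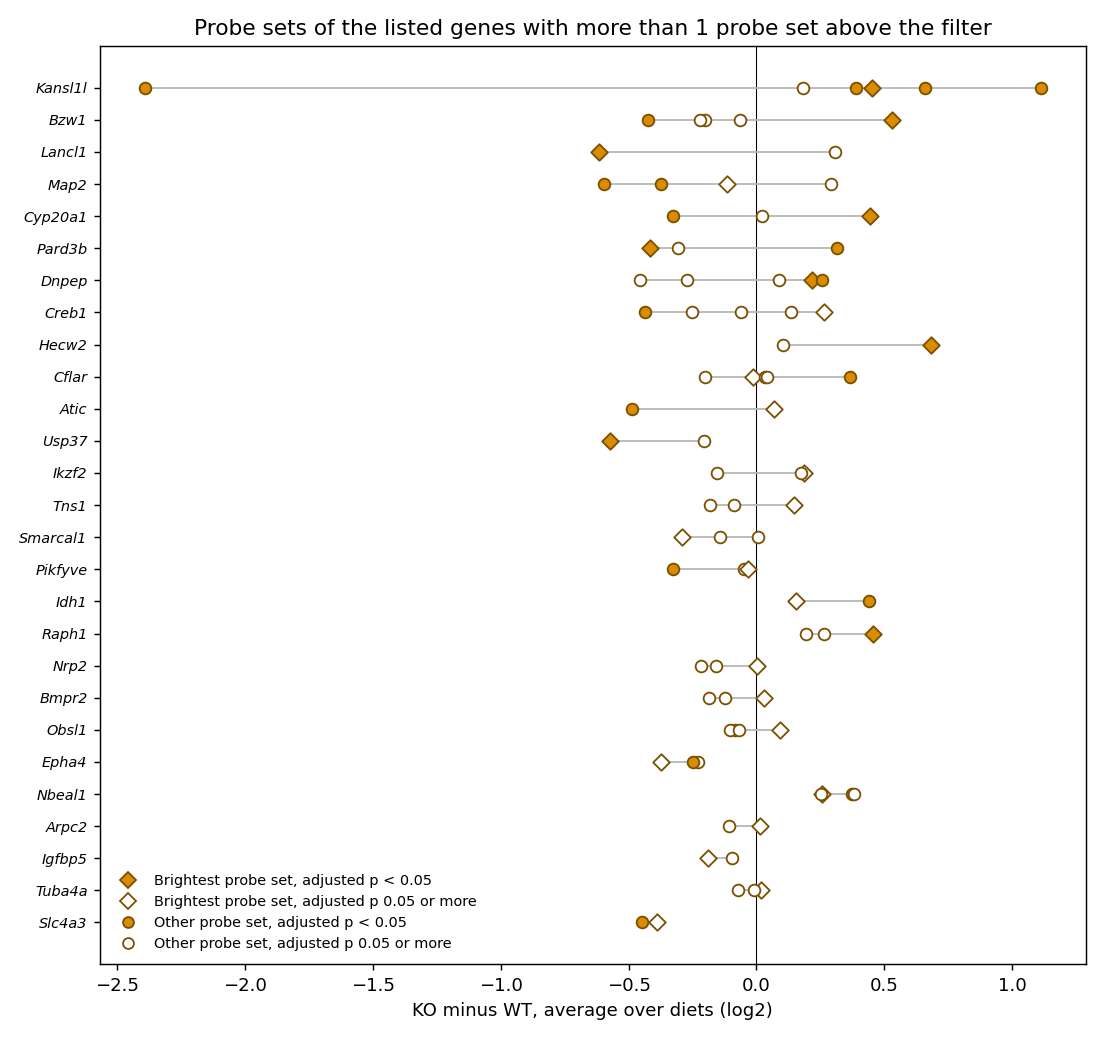
KO minus WT difference, average over diets (horizontal axis, log2), of each probe set of the 27 listed genes with more than 1 probe set above the filter (1 row per gene, ordered by spread); diamonds are the probe sets with the highest mean, which stand for the gene, circles the others, and filled symbols have an adjusted p under 0.05 over probe sets. In the rows of Kansl1l, Bzw1, Cyp20a1 and Pard3b filled symbols stand on both sides of 0.

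The same genes were compared between the diets. Between high-fat and normal diet 0 of 44 passed in KO (0% of all genes) and 0 in WT (0.0788% of all genes). In limma, 4 had an unadjusted p under 0.05 in KO (7.7% of all genes did), all lower on the high-fat diet: Aox1 differed by −0.50, Igfbp5 by −0.51, Cyp27a1 by −0.42 and Pax3 by −0.37. In WT, 3 had one, where 11.1% of all genes did: Igfbp5 differed by −0.53, Cflar by 0.29 and Atic by 0.24.

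The calls differed in how far they rest on single arrays, of which WT high-fat array 2 stood apart from its group. On 6 of the 17 called genes WT high-fat array 2 was nearer to the mean of the 6 KO arrays than to that of the 6 WT arrays, as the other WT arrays were on 0 or 1. Without it 24 of 44 genes passed on average, beside 16.4% of all genes, and 8 on the high-fat diet, beside 1.79%: Mreg, Cyp20a1, Bzw1, Kansl1l, Raph1 and Hecw2 rose, and Marchf4 and Pard3b fell. Leaving out KO high-fat arrays 1, 2 and 3 gave 13, 11 and 9 calls on average, beside 5.15%, 3.9% and 2.57% of all genes. WT high-fat arrays 1 and 3 gave 10 and 11, beside 2.42% and 2.04%. KO normal arrays 1, 2 and 3 gave 14, 10 and 6, beside 4.34%, 3.15% and 1.71%. WT normal arrays 1, 2 and 3 gave 8, 13 and 8, beside 1.67%, 5.12% and 2.13%. In every one of these 12 fits 6 genes passed: Mreg, Lancl1, Cyp20a1, Bzw1, Kansl1l and Marchf4. Usp37 lost its call without KO normal array 3 (adjusted p = 0.0612), Raph1 without that array (0.0543) or WT normal array 1 (0.0575), and Pard3b without KO normal array 3 (0.0616), KO high-fat array 3 (0.0511) or WT normal array 3 (0.0533). Vil1 lost it in 5 fits (up to 0.0703), Aox1 and Fzd5 in 8 each, Hecw2 and Casp8 in 9 each, and Stk16, Dnpep and Pax3 in 10 each, with adjusted p up to 0.106.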

How the data were processed

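Per the labels' protocols, total RNA was extracted with Trizol and 4 µg of it was labelled for each of the 12 Affymetrix arrays. RMA and Partek 6.6 are named in the submitters' processing notes; the sources used here do not give their options or the probe annotation. The deposited values are log2 signals from 2.6 to 15.3, with array medians of 7 to 7.13, and were used as deposited by the authors. RMA equalises the distributions of arrays, so a shift of most genes would be hidden and dim probe sets understate differences. On each array, 75.9% to 77.3% of the probe sets had a value above 5.

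Of 45101 probe sets, 34945 named 1 gene, 932 several, 9160 were not listed and 64 were controls; 34741 matched the reference table (GRCm38.p6), which gave names and gene order, by Entrez identifier. The brightest probe set, by its mean over the 12 arrays, stood for each of 18193 genes, and 15237 were above 5 on at least 3 arrays. Limma 3.58.1 in R 4.3.3 fitted 4 group means to 12 arrays (8 residual degrees of freedom, 11.08 moderated). The moderated test was two-sided, with Benjamini-Hochberg adjustment over all genes of each of 6 comparisons and a threshold of 0.05; a second fit took 28689 probe sets as rows. The median SE was 0.12 between 2 groups. In simulated data on 15237 genes, the average over diets recovered 91% of genes changed by 1 and 69% of those changed by 0.5 on the log2 scale. On the high-fat diet alone 79% and 40% were recovered, and on the normal diet alone 75% and 38%. False calls numbered 10, 7 and 8 in these comparisons. The simulated noise was independent for each gene and array, without paired KO arrays or an array that stood apart. These shares therefore do not give the power in the real data. Figures used matplotlib 3.10.9 in Python 3.11.15.

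Groups and replicate numbers came from the labels, and 0 pairs of arrays were identical. What a replicate number marks is not explained in the labels. Deviations of same-numbered KO arrays from their group means correlated across the diets with r = 0.288, 0.383 and 0.138. Same-numbered WT arrays gave 0.0524, 0.0987 and −0.156. The KO pairs were taken from these values, and whether they mark a shared origin was not tested. KO and WT arrays of a diet did not pair (−0.255 to 0.0546 on the normal diet, −0.512 to −0.0528 on the high-fat diet). Every listed gene is named. Values on each array are given for the 12 with the smallest p among those called, the best of each role group, and the 5 nearest to and 5 farthest from Sgpp2; those of Dnpep, 4 probe sets other than the standing ones and the other genes named for their values were chosen after the values were seen. The listed genes, role groups and marker lists were chosen with earlier results of these data known. Alternatives were other scalings, filters, choices of probe set and variance models, blocks, and fits without each array.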

Additional observations from a re-analysis of the deposited data

How the results depend on the processing

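For KO against WT averaged over diets, 17 listed genes passed. The count was 9 (2 higher, 7 lower) of the 42 tested with the mean of all probe sets, beside 4.41% of all genes. It was 8 with same-numbered KO arrays as a random block, beside 2.31%. With 1 array left out it was 6 (beside 1.71% of all genes) to 24 (beside 16.4%). With the replicate number as a block (replicate block) on all 12 arrays 11 passed, beside 3.44% of all genes. Scaling moved the split of 8 higher and 9 lower to 7 and 5 after cyclic loess. It became 10 and 5 after centring arrays on their medians. These scalings moved the median of all genes from −0.04 to −0.01 and 0.04. Calls over all genes moved as well, from 503 higher and 460 lower to 616 and 230, and 1070 and 174. Within 150 genes of Sgpp2 the split of 8 and 10 became 9 and 6, and 14 and 6. That window's count of 18, an alternative chosen after seeing the data, was 10 with the KO pairs (8.62%, beside 2.31% of all genes). With 1 array left out it was 8 (6.9%, beside 1.71%) to 31 (26.7%, beside 16.4%). On the high-fat diet the count of 0 was 1 with limma-trend and 0 to 8 with 1 array left out. On the normal diet the count of 2 was 1 after cyclic loess, without a filter, with the mean of probe sets and with the KO pairs, 4 after centring and with limma-trend, 0 with the replicate block and in a fit of the 6 arrays of that diet, and 0 to 3 with 1 array left out. Counts of 0 for diet and interaction held in all alternatives run.

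Over all genes, the 963 calls on average were 524 with the replicate block, 352 with the KO pairs and 255 to 2500 with 1 array left out. The 128 on the normal diet were 337 after centring, 336 with limma-trend, 69 with the mean of probe sets, 9 with the replicate block, 6 in the 6-array fit and 2 to 223 with 1 array left out. The 4 on the high-fat diet were 8 after centring, 12 with the second probe set, 63 with limma-trend, 2 with the replicate block, 0 in the 6-array fit and 0 to 272 with 1 array left out. The 12 for diet in WT were 19 after cyclic loess, 24 with limma-trend, 0 with the replicate block, 5 with the KO pairs, 1 in the 6-array fit and 0 to 11 with 1 array left out; the 0 for diet in KO were 10 with the KO pairs.

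Directions reversed where another probe set was read. Bzw1 differed by −0.077 on average, on the high-fat diet and on the normal diet with the mean of its probe sets, and by −0.065, −0.081 and −0.049 with the second. With the second probe set Lancl1 differed by 0.31 on average, 0.32 on the high-fat diet and 0.29 on the normal diet, Pard3b by 0.31 (adjusted p = 0.0391), 0.35 and 0.28, and Cyp20a1 by −0.050 on the high-fat diet. Obsl1 differed by −0.016, −0.0044 and −0.028 (average, high-fat, normal) with the mean and by −0.068 and −0.19 (average, high-fat) with the second. With 1 array left out, Obsl1 on the high-fat diet ran between −0.10 (without WT high-fat array 2) and 0.12 (without KO high-fat array 3), Epha4 on that diet between −0.53 (without WT high-fat array 1) and 0.025 (without KO high-fat array 2), and Cflar on average between −0.043 (without WT normal array 2) and 0.0093 (without KO high-fat array 2). Dnpep differed by −0.033 on average and −0.076 on the high-fat diet with the mean of its probe sets. Cflar differed on average by 0.062 after centring, 0.044 with the mean and 0.033 with the second, and by 0.019 with the mean on the high-fat diet. The cause was not tested. Over the 23 listed genes with values on each array, 349 average results kept direction and side, 109 lost the call, 7 gained one and 14 reversed.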
